A study of Mus musculus with 18 samples.

Results

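Embryoid bodies (EBs), the aggregates that mouse embryonic stem (ES) cells form when they are allowed to differentiate, were compared with ES cells, once for cells labelled as lacking Eed and once for wild-type cells. The quantity described is the difference between those changes: the effect of the Eed knockout (KO) label in EBs minus its effect in ES cells, which equals the change from ES cells to EBs under the KO label minus the same change in wild type. It rests on 4 of the 18 samples of the series, chosen by their labels alone: EBs labelled Eed KO, wild-type EBs, ES cells labelled Eed KO and wild-type ES cells, with 1 RNA-seq library each. All 4 are labelled as the strain background 129/Ola, and both ES libraries and the wild-type EBs as the line E36, while no line is named for the EBs labelled Eed KO; the other RNA-seq libraries are E14 ES cells with a control or a Setd2 short hairpin RNA, and the remaining 12 samples are ChIP-seq.

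ES cells were grown on gelatin with 15% serum and leukemia inhibitory factor, the cytokine that holds them undifferentiated. EBs of both genotypes were formed over 48 h in hanging drops without that factor, received 0.5 µM all-trans-retinoic acid between day 2 and day 5, and stayed in culture until day 9. The labels give neither the Eed allele nor the number of clones behind the KO libraries. With 1 library for each group there is no replicate check: no test was run, and no difference below can be set against a spread between replicates.

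Eed is a core subunit of Polycomb repressive complex 2 (PRC2), in which Ezh1 or Ezh2 places methyl groups on lysine 27 of histone H3 and Eed reads that mark and holds the enzyme active. Genes of developmental transcription factors carry the mark in ES cells, where it goes with their silence. During differentiation some of these genes lose the mark and switch on, while genes of other lineages keep it. Retinoic acid given to EBs is a classical way to obtain neural cells and to switch on HOX genes from the anterior end of the clusters.

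The level of the targeted gene did not check the labels. The Eed transcript had 21.8 FPKM in EBs labelled Eed KO, 25.04 FPKM in wild-type EBs, 77.8 FPKM in ES cells labelled Eed KO and 72.3 FPKM in wild-type ES cells. FPKM divides the fragments of a transcript by its length and by the size of the library, so levels are per length. Eed mRNA was thus about as high under the KO label as in wild type in each cell type, and every direction given here rests on the labels. Ezh2, the PRC2 enzyme, had 38.3 FPKM in EBs labelled Eed KO, 38.5 in wild-type EBs, 67.1 in ES cells labelled Eed KO and 45.9 in wild-type ES cells. None of the 12 expressed PRC2 genes differed between the responses by the size rule below, and their median difference was 0.02.

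Of 23421 genes, 14774 reached 1 FPKM in at least 1 of the 4 libraries and are called expressed. All differences are of log2(FPKM + 1), where the added 1 understates the change of weakly expressed genes, and the size rule calls a gene higher or lower once its difference reaches 1 in either direction. The difference of Eed effects was higher for 1352 expressed genes (9.15%) and lower for 1487 (10.1%), around a median of -0.11 over all expressed genes. In EBs the KO library was higher for 1141 genes (7.72%) and lower for 1440 (9.75%), and in ES cells for 415 (2.81%) and 445 (3.01%), or 5.82% of genes either way in ES cells. Among the 2839 genes past the rule, the Eed effect in EBs was the larger in size for 2155 and the one in ES cells for 684.

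Several facts of the libraries bear on all results. Depth, read from the steps of low FPKM values and set to 1 for wild-type ES cells, was 0.799 for EBs labelled Eed KO, 1.18 for wild-type EBs and 1.18 for ES cells labelled Eed KO, so the shallowest library is the one in which most of the genes described next were low. The Y-linked gene Eif2s3y, a translation initiation factor subunit, had 0.0628 FPKM in EBs labelled Eed KO, 25.7 in wild-type EBs, 20.4 in ES cells labelled Eed KO and 36.9 in wild-type ES cells, and Ddx3y and Uty followed the same order of EBs. Genes of chromosomes 3 and 6 were higher and genes of chromosome 11 lower under the KO label in both cell types: over genes of at least 5 FPKM in some library, the median relative to all genes was 0.59 in EBs and 0.34 in ES cells for chromosome 3, 0.52 in EBs and 0.49 in ES cells for chromosome 6, and -0.54 in EBs and -0.48 in ES cells for chromosome 11. In the difference of Eed effects the shifts were 0.21 for chromosome 3, -0.00 for chromosome 6 and -0.06 for chromosome 11. The shifts of the 17 other chromosomes apart from Y ran from -0.08 to 0.10. Of the chromosome 3 genes of at least 5 FPKM, 18.6% were higher, beside 985 of all 11069 genes at that level. Trp53, the gene of p53, was listed near 0 for its main transcript in EBs labelled Eed KO, against 61.7 FPKM in wild-type EBs, and had 65.5 in ES cells labelled Eed KO and 239 in wild-type ES cells, beside 63.7 in the E14 control. Eif2s3y and Trp53 were thus present in ES cells labelled Eed KO and nearly absent in EBs with that label, and whether both KO libraries come from one clone or line was not tested. What part depth, the Y-linked genes, the chromosomes or Trp53 have in the results was not tested.

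Most of the genes that changed from ES cells to EBs in wild type also did so under the KO label. By the same rule, applied to EBs minus ES cells under 1 label and called induced or lowered, 2925 genes (19.8%) were induced and 2723 (18.4%) lowered under the KO label, against 2869 (19.4%) induced and 2086 (14.1%) lowered in wild type. Of the 2869 genes induced in wild type, 1722 (60.0%) were also induced under the KO label, 1091 stayed within the rule and 56 were lowered. Of the 2086 genes lowered in wild type, 1495 (71.7%) were also lowered under the KO label, 565 stayed within the rule and 26 were induced. The responses had a Pearson r of 0.66 and a Spearman rho of 0.76 across genes, which are not independent replicates.

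**Figure D1:**
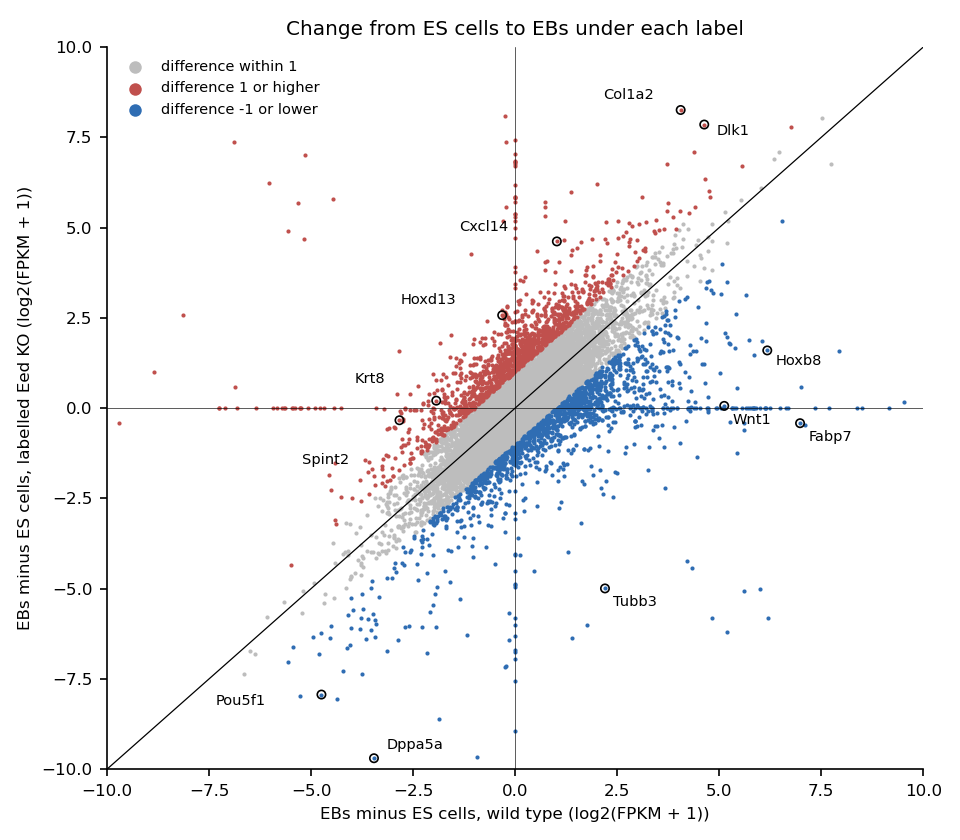
Change from ES cells to EBs in wild type (horizontal axis) and under the Eed KO label (vertical axis), each as a difference of log2(FPKM + 1), for the expressed genes; 5 genes beyond 10 on either axis are not drawn. Points off the diagonal by 1 or more are coloured: the 1487 blue genes, such as Tubb3, Fabp7 and Pou5f1, lie below it and the 1352 red genes, such as Hoxd13, Cxcl14 and Spint2, above it.

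The losses and gains were unevenly spread over the response classes. A gain in wild type that stayed within the rule under the KO label was the pattern of 599 genes (4.05%) among those past the rule, 153 (1.04%) were induced under both labels but less under KO, and 56 (0.379%) were induced in wild type and lowered under KO. Lowering under the KO label only was seen for 340 genes (2.30%), and 168 (1.14%) were lowered in both but further under KO. In the other direction, 605 genes (4.10%) were induced under the KO label only, 238 (1.61%) were induced further under KO, 250 (1.69%) were lowered in wild type only, 55 (0.372%) were lowered less under KO and 26 (0.176%) were lowered in wild type and induced under KO. The remaining 171 lower (1.16%) and 178 higher genes (1.20%) passed the rule in the difference while neither response did.

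Genes of postmitotic neurons made up the longest list among the losses. Of 54 expressed members, 38 were lower and 2 higher in the difference of Eed effects, with a median of -2.02. In wild type 40 of them were induced; under the KO label 9 of those 40 were also induced, 26 stayed within the rule and 5 were lowered. Their median level was 0.992 FPKM in EBs labelled Eed KO, 12.3 in wild-type EBs, 1.16 in ES cells labelled Eed KO and 1.39 in wild-type ES cells. In bulk RNA, fewer neurons and less of each RNA per neuron cannot be told apart.

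Tubb3, the neuronal beta-tubulin (chromosome 8, 125935464 to 125945910 on mm9), had 1.23 FPKM in EBs labelled Eed KO, 290.2 in wild-type EBs, 70.2 in ES cells labelled Eed KO and 62.4 in wild-type ES cells. Wild-type EBs were thus the highest, both ES libraries were alike, and EBs labelled Eed KO lay far under the ES cells with the same label: the KO response was -4.996, the wild-type response 2.20 and the difference -7.20. Stmn3, a stathmin that binds tubulin in neurons, followed with 0.141 FPKM in EBs labelled Eed KO, 41.1 in wild-type EBs, 2.78 in ES cells labelled Eed KO and 3.44 in wild-type ES cells, a difference of -4.97. Nsg2, an endosomal protein of neurons, kept a small gain under the KO label, of 1.48 against 5.84 in wild type, with 2.59 FPKM in EBs labelled Eed KO and 96.5 in wild-type EBs.

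An exact 0 in these files can be a failed estimate and gives no fold. Elavl4, an RNA-binding protein of early neurons, was listed at 0 in EBs labelled Eed KO and had 16.6 FPKM in wild-type EBs, with 0.441 in ES cells labelled Eed KO and 0.195 in wild-type ES cells. Slc17a6, the vesicular glutamate transporter VGLUT2, had 0.0769 FPKM in EBs labelled Eed KO and 9.05 in wild-type EBs, with 0.0374 in ES cells labelled Eed KO and 0.0260 in wild-type ES cells. For such genes, absent or nearly absent in 3 of the 4 libraries, the difference repeats the wild-type response: it was -3.24 for Slc17a6 beside a wild-type response of 3.29.

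Ina, the neurofilament protein internexin, differed from these by its ES level. It had 0.317 FPKM in EBs labelled Eed KO, 41.3 in wild-type EBs, 14.8 in ES cells labelled Eed KO and 39.4 in wild-type ES cells. The wild-type libraries were alike, with a response of 0.07, and the loss of -3.59 occurred under the KO label. Rtn1 and Ckb were outside the list of neuronal genes and were named for the size of their difference. Rtn1, a reticulon of the endoplasmic reticulum in neurons, went the other way in ES cells: it had 1.06 FPKM in EBs labelled Eed KO against 53.7 in wild-type EBs, but 8.64 in ES cells labelled Eed KO against 3.32 in wild-type ES cells. Ckb, the brain creatine kinase, fell to 14.7 FPKM in EBs labelled Eed KO, against 247 in ES cells labelled Eed KO, while wild-type EBs had 365 and wild-type ES cells 149.7. Map2, a dendritic microtubule protein, was listed at 0 for its main transcript in both KO libraries and had 41.8 FPKM in wild-type EBs; summed over its 2 transcripts it had 5.18 FPKM in EBs labelled Eed KO, 46.8 in wild-type EBs, 1.18 in ES cells labelled Eed KO and 2.60 in wild-type ES cells, and the difference shrank to -2.22.

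Upstream of the neurons, proneural factors and Notch components were lost as well. These basic helix-loop-helix factors commit progenitors to a neuronal fate, and Notch signalling between neighbours restrains them. Of 27 expressed members, 18 were lower and 1 higher in the difference, with a median of -2.32. Of the 19 induced in wild type, 4 were also induced under the KO label, 10 stayed within the rule and 5 were lowered.

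Atoh1, which specifies dorsal hindbrain and spinal neurons, had 0.0962 FPKM in EBs labelled Eed KO, 15.3 in wild-type EBs, 1.30 in ES cells labelled Eed KO and 0.302 in wild-type ES cells. Neurog1, a factor of sensory and dorsal spinal neurons, had 0.402 FPKM in EBs labelled Eed KO, 8.22 in wild-type EBs, 2.33 in ES cells labelled Eed KO and 0.427 in wild-type ES cells. Atoh1 and Neurog1 were therefore higher under the KO label in ES cells and far lower under it in EBs.

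Nhlh2, a helix-loop-helix factor of young neurons, had 0.0921 FPKM in EBs labelled Eed KO and 20.3 in wild-type EBs, with 0.0776 in ES cells labelled Eed KO and 0.0794 in wild-type ES cells. Hes5, a Notch target that keeps progenitors cycling, was listed at 0 in EBs labelled Eed KO and had 9.67 FPKM in wild-type EBs. Dll1, a Notch ligand carried by nascent neurons, had 0.308 FPKM in EBs labelled Eed KO, 11.8 in wild-type EBs, 1.92 in ES cells labelled Eed KO and 2.73 in wild-type ES cells. The ligand and the target thus went with the proneural factors.

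Neural progenitor genes were lost only in part. Of 26 expressed members, 15 were lower and 4 higher, with a median of -1.08. Of the 13 induced in wild type, 9 (69.2%) were also induced under the KO label, near the 60.0% of all 2869 genes induced in wild type. Fabp7, the fatty acid binding protein of radial glia, stood at the extreme of the whole table of the genes eligible for naming: it was listed at 0 in EBs labelled Eed KO and had 162 FPKM in wild-type EBs, 0.338 in ES cells labelled Eed KO and 0.289 in wild-type ES cells. Sox2, shared by pluripotent and neural cells, had 7.14 FPKM in EBs labelled Eed KO, 52.6 in wild-type EBs, 186 in ES cells labelled Eed KO and 177 in wild-type ES cells. It was lowered under both labels, and further under KO. Zic1, a zinc finger factor of the dorsal neural tube, kept a response of 3.14 under the KO label against 5.66 in wild type, with 18.3 FPKM in EBs labelled Eed KO and 61.7 in wild-type EBs. A member with the opposite sign was Nkx6-1, a factor of ventral neural tube and pancreas, with 3.04 FPKM in EBs labelled Eed KO and 0.139 in wild-type EBs.

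Single genes from the lists of signalling molecules showed the same order of EBs as the neural genes. Wnt1, a ligand made at the roof of the midbrain and spinal cord, had 0.0921 FPKM in EBs labelled Eed KO, 34.5 in wild-type EBs, 0.0478 in ES cells labelled Eed KO and 0.0210 in wild-type ES cells. Fgf15, an Fgf of the neural tube, had 1.22 FPKM in EBs labelled Eed KO, 28.4 in wild-type EBs, 8.11 in ES cells labelled Eed KO and 8.47 in wild-type ES cells, so it was lowered under one label and induced under the other. Id4, an inhibitor of helix-loop-helix factors found in neural progenitors, had 3.58 FPKM in EBs labelled Eed KO and 37.1 in wild-type EBs. All of these were highest in wild-type EBs. The lists as wholes did not go with them: 7 of 32 Wnt ligands and antagonists were higher and 4 lower, with a median of 0.03, and 3 of 29 Bmp and Tgf-beta ligands and antagonists were higher and 6 lower, with a median of 0.22, and 8 of 28 Fgf and hedgehog genes were higher and 2 lower, with a median of 0.55. Wnt2b, a ligand of lateral mesoderm among other tissues, was one of those higher, with 10.3 FPKM in EBs labelled Eed KO and 1.28 in wild-type EBs.

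**Figure D2:**
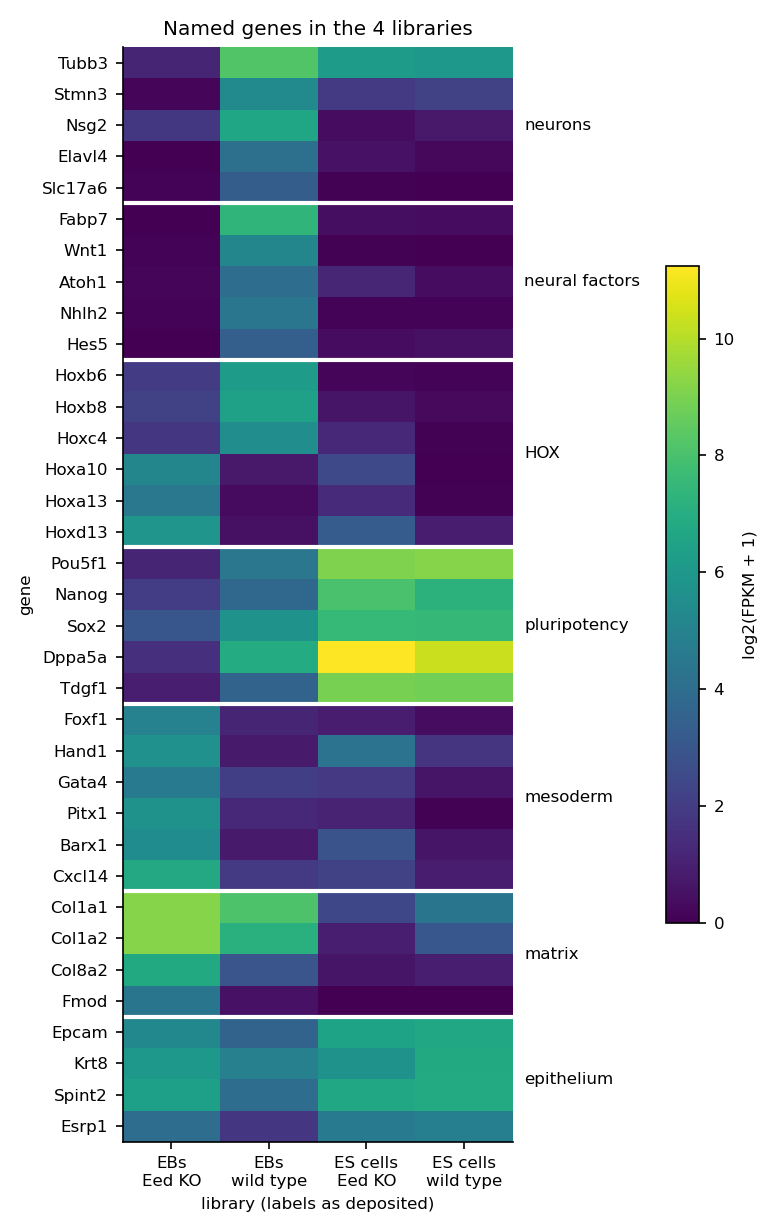
Level of 35 named genes as log2(FPKM + 1) in the 4 libraries, from left to right EBs labelled Eed KO, wild-type EBs, ES cells labelled Eed KO and wild-type ES cells. The neuronal and neural rows are bright in wild-type EBs only, apart from Tubb3, which both ES libraries also hold, and the mesoderm and matrix rows are brightest in EBs labelled Eed KO.

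The HOX genes split by their place along the clusters. These homeobox genes lie in clusters named Hoxa to Hoxd, are numbered by paralogue group from the 3′ end, and are switched on in that order along the body axis. Of the 23 expressed genes of groups 1 to 8, 21 were lower in the difference and 0 higher, with a median of -3.17. Of the 4 genes of group 9, 1 was lower and 0 were higher. Of the 12 expressed genes of groups 10 to 13, 11 were higher and 0 lower, with a median of 1.93.

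Groups 1 to 8 ran between 0.115 and 6.85 FPKM in EBs labelled Eed KO, with a median of 2.996, and between 1.37 and 86.5 FPKM in wild-type EBs, with a median of 20.1. They ran between 0.112 and 4.38 FPKM in ES cells labelled Eed KO and between 0 and 1.58 in wild-type ES cells. The KO label thus went with more of these RNAs in ES cells, for 22 of the 23 genes, and with less in EBs, for 21 of the 23. Of the 21 induced in wild type, 11 (52.4%) were also induced under the KO label, by less. That share was near the 60.0% of all 2869 genes induced in wild type.

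Hoxb8 had 3.63 FPKM in EBs labelled Eed KO, 86.5 in wild-type EBs, 0.533 in ES cells labelled Eed KO and 0.210 in wild-type ES cells. Hoxb6 had 2.996 FPKM in EBs labelled Eed KO, 70.3 in wild-type EBs, 0.112 in ES cells labelled Eed KO and 0.0711 in wild-type ES cells. Both transcription factors pattern the trunk, and both were induced under each label: Hoxb8 by 1.60 under the KO label against 6.18 in wild type, and Hoxb6 by 1.85 under the KO label against 6.06 in wild type. Hoxc4, which acts at the neck level, had 2.44 FPKM in EBs labelled Eed KO, 44.4 in wild-type EBs, 1.36 in ES cells labelled Eed KO and 0.0442 in wild-type ES cells, and Hoxc5 had 0.643 FPKM in EBs labelled Eed KO and 28.1 in wild-type EBs.

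Groups 10 to 13 showed the reverse order of EBs. They ran between 1.78 and 57.3 FPKM in EBs labelled Eed KO, with a median of 10.5, and between 0 and 1.54 in wild-type EBs, with a median of 0.138. In ES cells labelled Eed KO they ran between 0.211 and 8.80 FPKM, with a median of 1.73, and in wild-type ES cells between 0 and 0.790. All 12 were higher under the KO label in EBs and all 12 in ES cells, so the sign of their difference means that the KO label went with more RNA in EBs than in ES cells, on top of an effect that ES cells already had.

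Hoxd13, which shapes digits and the hindgut end (chromosome 2, 74506367 to 74509656 on mm9), had 57.3 FPKM in EBs labelled Eed KO, 0.435 in wild-type EBs, 8.80 in ES cells labelled Eed KO and 0.790 in wild-type ES cells. Hoxa13, its paralogue, had 21.7 FPKM in EBs labelled Eed KO, 0.263 in wild-type EBs, 1.53 in ES cells labelled Eed KO and 0.0539 in wild-type ES cells. Hoxa10, a gene of the lumbar axis and the uterus, had 34.8 FPKM in EBs labelled Eed KO, 0.688 in wild-type EBs, 4.59 in ES cells labelled Eed KO and 0.0223 in wild-type ES cells; its difference of 1.95 was 0.21 with 0.1 added to FPKM in place of 1. All of these were highest in EBs labelled Eed KO and second highest in ES cells with the same label. Hoxc10, the only member of groups 10 to 13 within the rule, had a difference of 0.81. The kit did not mark strand, so reads of HOX genes and of RNAs from the opposite strand cannot be told apart.

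Group 9 was mixed. Hoxb9 had 10.2 FPKM in EBs labelled Eed KO, 82.1 in wild-type EBs, 2.03 in ES cells labelled Eed KO and 0.570 in wild-type ES cells, a difference of -3.85. All 4 genes of group 9 were induced under both labels. In EBs, 3 of the 4 were higher under the KO label and 1, Hoxb9, was lower. The median difference of the group was -0.62, or -2.39 with 0.1 added to FPKM in place of 1. The Hoxa cluster lies on chromosome 6 and the Hoxb cluster on chromosome 11, whose genes differed between the labels as a whole. Over the Hoxc and Hoxd genes alone the medians were -3.52 for the 8 genes of groups 1 to 8 and 2.11 for the 8 of groups 10 to 13.

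**Figure D3:**
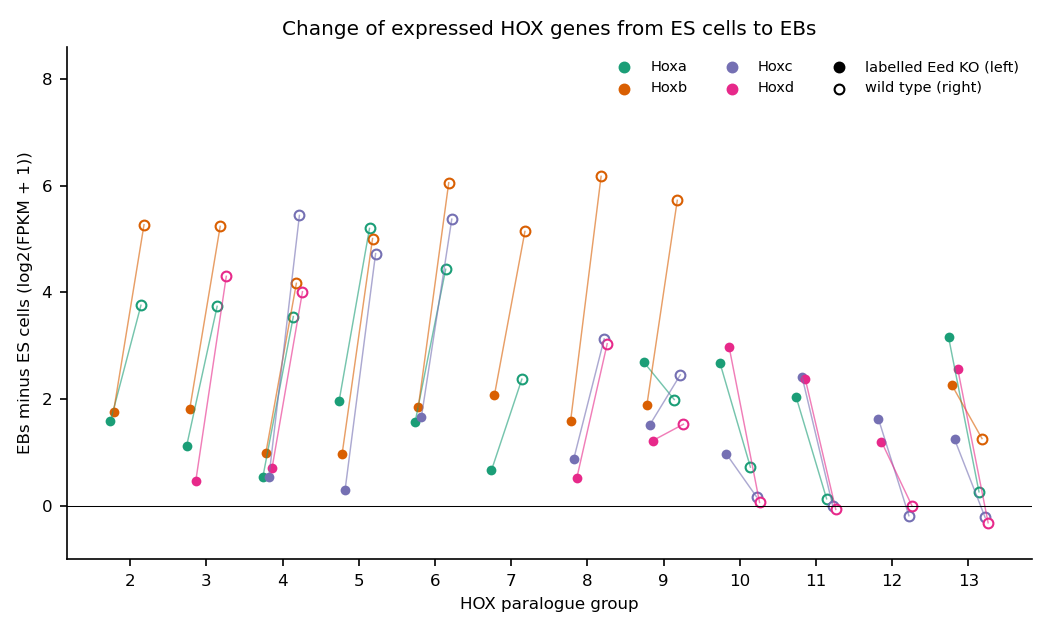
Change from ES cells to EBs of each expressed HOX gene of paralogue groups 2 to 13, as a difference of log2(FPKM + 1), with the Eed KO label (filled, left) joined to wild type (open, right) and colours for the clusters. Groups 2 to 8 slope upward to wild type, by up to 4.90 for Hoxc4, and groups 10 to 13 slope downward, by 2.89 for Hoxd13.

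The promoters of a neuronal gene, a radial glia gene, an anterior and a posterior HOX gene that bear these opposite differences are shown for their base composition, since PRC2 in ES cells sits mostly at promoters rich in CpG, the dinucleotide of C followed by G. Each line gives the 250 bases before the start site in the RefSeq table of build GRCm38.p6, 5′ to 3′ on the strand of the gene, with CpG in capitals. All 4 genes lie on the plus strand, and the windows are chr8:123411303-123411552 for Tubb3, chr10:57784673-57784922 for Fabp7, chr11:96281655-96281904 for Hoxb8 and chr2:74667975-74668224 for Hoxd13.
Tubb3: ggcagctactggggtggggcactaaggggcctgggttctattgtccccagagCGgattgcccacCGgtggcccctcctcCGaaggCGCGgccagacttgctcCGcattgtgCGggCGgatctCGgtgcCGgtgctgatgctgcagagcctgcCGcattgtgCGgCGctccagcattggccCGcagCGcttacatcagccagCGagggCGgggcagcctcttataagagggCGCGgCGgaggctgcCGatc
Fabp7: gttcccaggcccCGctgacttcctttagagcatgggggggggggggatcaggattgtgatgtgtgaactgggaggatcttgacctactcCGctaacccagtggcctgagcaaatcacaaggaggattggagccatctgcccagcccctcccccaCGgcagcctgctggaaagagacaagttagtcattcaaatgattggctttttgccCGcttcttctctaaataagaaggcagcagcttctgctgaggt
Hoxb8: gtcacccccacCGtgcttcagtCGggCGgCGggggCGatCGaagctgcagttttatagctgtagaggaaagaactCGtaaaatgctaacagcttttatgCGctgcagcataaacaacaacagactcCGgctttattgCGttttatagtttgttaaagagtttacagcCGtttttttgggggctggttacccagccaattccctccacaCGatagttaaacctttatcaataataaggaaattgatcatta
Hoxd13: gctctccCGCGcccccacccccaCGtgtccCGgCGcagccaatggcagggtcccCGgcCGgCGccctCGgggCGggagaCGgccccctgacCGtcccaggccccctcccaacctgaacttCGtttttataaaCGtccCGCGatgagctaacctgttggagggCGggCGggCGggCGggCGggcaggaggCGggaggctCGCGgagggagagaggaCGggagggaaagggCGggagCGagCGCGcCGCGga

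These windows hold 21 CpG for Tubb3, 4 for Fabp7, 12 for Hoxb8 and 31 for Hoxd13, beside a median of 6 and quartiles of 2 and 16 over all 32851 windows. Fabp7, with a difference of -7.40, had the fewest CpG of this small set, and Hoxd13, with 2.89, the most. Tubb3, with a difference of -7.20, had 21, above the upper quartile. A link between CpG count and direction was not tested. None of the 4 windows holds TTCAGCACC, the first part of the RE1 element of neuronal genes, on either strand, which 122 of all windows do (0.371%). A comparison of CpG content between response classes was void, because a window was at hand for 75.8% of expressed genes, under the 80% set for it.

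Pluripotency genes were lowered further under the KO label. Of 32 expressed genes of the pluripotency network, 20 were lower and 1 higher in the difference, with a median of -1.64. Both labels lowered nearly all of them: 31 fell by the rule in wild type and 30 of those 31 also under the KO label, where the median change was -5.78 against -3.79 in wild type. Their median level was 0.844 FPKM in EBs labelled Eed KO, 4.18 in wild-type EBs, 81.1 in ES cells labelled Eed KO and 58.7 in wild-type ES cells. In the E14 control it was 77.7 FPKM.

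Pou5f1, the central factor Oct4 (chromosome 17, 35642977 to 35647722 on mm9), had 1.21 FPKM in EBs labelled Eed KO, 20.8 in wild-type EBs, 540.1 in ES cells labelled Eed KO and 586 in wild-type ES cells. The ES cells were alike and wild-type EBs kept the larger remnant. Tdgf1, a co-receptor of Nodal, had 0.936 FPKM in EBs labelled Eed KO, 10.98 in wild-type EBs, 485 in ES cells labelled Eed KO and 459 in wild-type ES cells, the same pattern. Dppa5a, an RNA-binding protein of pluripotent cells, had 1.92 FPKM in EBs labelled Eed KO, 118 in wild-type EBs, 2423 in ES cells labelled Eed KO and 1315 in wild-type ES cells, and the widest difference of the group, -6.24.

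For another set the ES level added to the difference. Nanog, a factor of the naive state, had 3.10 FPKM in EBs labelled Eed KO, 12.8 in wild-type EBs, 256 in ES cells labelled Eed KO and 146 in wild-type ES cells. Lefty2, a Nodal antagonist, had 0.122 FPKM in EBs labelled Eed KO, 4.23 in wild-type EBs, 184 in ES cells labelled Eed KO and 69.2 in wild-type ES cells. Dppa3, a maternal factor also made by germ cells, and Esrrb, a nuclear receptor of naive cells, likewise had effects of opposite sign in EBs and ES cells. In the E14 control Nanog had 241 FPKM, near the ES cells labelled Eed KO. Lefty2 had 14.2 FPKM there and Dppa3 16.5, both below the wild-type E36 ES cells. The difference of Esrrb, -2.52, was -0.93 with the E14 control. Nanog and Dppa3 lie on chromosome 6, whose genes were higher under the KO label. Klf5, a Krüppel-like factor shared with epithelia, was the member with a higher difference, 1.84, and had 7.11 FPKM in EBs labelled Eed KO, 3.11 in wild-type EBs, 26.7 in ES cells labelled Eed KO and 49.3 in wild-type ES cells.

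Germ line genes were also more often lower in the difference, but by another route: 9 of 25 expressed members were lower and 3 higher, with a median of -0.78. Their median Eed effect was -0.17 in EBs and 0.58 in ES cells. For the pluripotency genes it was -1.50 in EBs and 0.08 in ES cells. Khdc3, a maternal factor of the oocyte, had 0.0299 FPKM in EBs labelled Eed KO, 0.388 in wild-type EBs, 67.3 in ES cells labelled Eed KO and 5.80 in wild-type ES cells, so its difference of -3.76 came mostly from the ES libraries. Outside that list, Rhox6, an X-linked homeobox gene of placenta and germ cells, had 0.405 FPKM in EBs labelled Eed KO, 6.06 in wild-type EBs, 31.3 in ES cells labelled Eed KO and 4.14 in wild-type ES cells. Rhox6 went against the list of trophoblast genes it was taken from, of which 7 of 21 were higher and 3 lower, with a median of 0.57. Dnmt3l, the cofactor of the de novo DNA methyltransferases, had 0.372 FPKM in EBs labelled Eed KO, 6.51 in wild-type EBs, 367 in ES cells labelled Eed KO and 155 in wild-type ES cells. Khdc3, Rhox6 and Dnmt3l were each the highest in ES cells labelled Eed KO and the lowest in EBs with that label.

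Factors of heart and lateral plate mesoderm were gained in EBs labelled Eed KO. Of 26 expressed members, 11 were higher and 2 lower, with a median of 0.81, and 24 were induced under the KO label against 16 in wild type, of which 14 were shared. Their median level was 12.7 FPKM in EBs labelled Eed KO, 4.07 in wild-type EBs, 0.824 in ES cells labelled Eed KO and 0.204 in wild-type ES cells.

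Foxf1, a forkhead factor of splanchnic mesoderm, had 30.6 FPKM in EBs labelled Eed KO, 1.25 in wild-type EBs, 0.867 in ES cells labelled Eed KO and 0.308 in wild-type ES cells. Its neighbour Fendrr, a long non-coding RNA, had 11.5 FPKM in EBs labelled Eed KO, 0.185 in wild-type EBs and 0.0136 in ES cells labelled Eed KO, and was listed at 0 in wild-type ES cells. Tbx20, a T-box factor of the heart, had 14.3 FPKM in EBs labelled Eed KO, 0.927 in wild-type EBs, 1.75 in ES cells labelled Eed KO and 1.16 in wild-type ES cells. These genes were below 2 FPKM in the other libraries.

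Hand1 showed an effect in ES cells already, and Gata4 did so against the wild-type E36 library. Hand1, a helix-loop-helix factor of heart and extraembryonic mesoderm, had 51.2 FPKM in EBs labelled Eed KO, 0.782 in wild-type EBs, 18.4 in ES cells labelled Eed KO and 2.26 in wild-type ES cells. Gata4, a zinc finger factor of heart and endoderm, had 24.8 FPKM in EBs labelled Eed KO, 3.30 in wild-type EBs, 2.65 in ES cells labelled Eed KO and 0.571 in wild-type ES cells. The E14 control had 4.21 FPKM of Hand1 and 1.88 of Gata4, and for Gata4 it lay nearer to the ES cells labelled Eed KO. The contractile genes did not follow their factors as a group: of 21 sarcomere genes of heart and smooth muscle 4 were higher and 3 lower, with a median of 0.31 that turned to -0.93 with the E14 control in place of the wild-type E36 ES library. Tnni1, the slow troponin I that embryonic heart uses, was among the higher ones, with 19.8 FPKM in EBs labelled Eed KO, 1.63 in wild-type EBs and next to nothing in both ES libraries.

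Homeobox and T-box genes of limb, pharynx and placodes were gained likewise, with 21 of 50 higher, 5 lower and a median of 0.84. The KO label went with induction of 33 of them and wild type with 23. Pitx1, a hindlimb and pharyngeal factor, had 52.8 FPKM in EBs labelled Eed KO, 1.39 in wild-type EBs, 1.14 in ES cells labelled Eed KO and 0.0389 in wild-type ES cells. Barx1, a factor of jaw and stomach mesenchyme, had 42.6 FPKM in EBs labelled Eed KO, 0.759 in wild-type EBs, 6.32 in ES cells labelled Eed KO and 0.558 in wild-type ES cells. Both were highest in EBs labelled Eed KO. The members with a lower difference included factors of the neural plate: Lhx2, a forebrain and eye factor, had 7.60 FPKM in EBs labelled Eed KO and 18.1 in wild-type EBs, and Lmx1a, a factor of the roof plate, 0.810 in EBs labelled Eed KO and 5.37 in wild-type EBs.

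Matrix genes were switched on in EBs under both labels, and more under KO. All 32 of the fibroblast and matrix genes induced in wild type were also induced under the KO label, and of 43 expressed members 16 were higher and 2 lower in the difference, with a median of 0.61 that became 0.30 with the E14 control in place of the wild-type E36 ES library. The other 25 were within the rule. Their summed level was 4414 FPKM in EBs labelled Eed KO, 2932 in wild-type EBs, 719 in ES cells labelled Eed KO and 824 in wild-type ES cells, over all 43 members. The sums include Col1a1 and Col1a2, with 587 and 589 FPKM in EBs labelled Eed KO and 273 and 138 in wild-type EBs. The median level was 47.2 FPKM in EBs labelled Eed KO and 24.1 in wild-type EBs.

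Col8a2 and Fmod were outside the matrix list and were named for the size of their difference, while Eln was on it. Col8a2, a short-chain collagen, had 112 FPKM in EBs labelled Eed KO, 6.79 in wild-type EBs, 0.540 in ES cells labelled Eed KO and 0.942 in wild-type ES cells. Fmod, the proteoglycan fibromodulin of tendon and cartilage, had 20.0 FPKM in EBs labelled Eed KO, 0.454 in wild-type EBs and 0.0210 in ES cells labelled Eed KO, and was listed at 0 in wild-type ES cells. Eln, elastin, had 17.6 FPKM in EBs labelled Eed KO, 2.53 in wild-type EBs, 0.328 in ES cells labelled Eed KO and 0.360 in wild-type ES cells. The ES cells held little of any of them, so these differences come from EBs.

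Collagen I was different in this. Col1a2, one chain of collagen I (chromosome 6, 4455697 to 4491543 on mm9), had 589 FPKM in EBs labelled Eed KO, 138 in wild-type EBs, 0.929 in ES cells labelled Eed KO and 7.37 in wild-type ES cells, and a difference of 4.202. Col1a1, the other chain, had 587 FPKM in EBs labelled Eed KO, 273 in wild-type EBs, 4.45 in ES cells labelled Eed KO and 19.7 in wild-type ES cells. E14 control cells, the other ES library without the KO label, had 0.559 FPKM of Col1a2 and 4.23 of Col1a1, near the ES cells labelled Eed KO, so part of both differences rests on the wild-type E36 library.

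Some single genes were named for the size of their difference and do not stand for a group. Cxcl14, a chemokine, had 110.2 FPKM in EBs labelled Eed KO, 2.77 in wild-type EBs, 3.54 in ES cells labelled Eed KO and 0.858 in wild-type ES cells. Upk3b, a uroplakin also found in mesothelium, had 19.12 FPKM in EBs labelled Eed KO, 0.524 in wild-type EBs, 0.479 in ES cells labelled Eed KO and 0.518 in wild-type ES cells. EBs labelled Eed KO stood alone in their level of both. Wt1, a zinc finger factor of mesothelium and kidney, had 29.5 FPKM in EBs labelled Eed KO, 6.69 in wild-type EBs, 4.05 in ES cells labelled Eed KO and 8.03 in wild-type ES cells. Tac2, a tachykinin, had 42.3 FPKM in EBs labelled Eed KO, 1.47 in wild-type EBs, 0.204 in ES cells labelled Eed KO and 0.0629 in wild-type ES cells. The liver-type endoderm marker Afp had 0.290 FPKM in EBs labelled Eed KO and 0.339 in wild-type EBs, and Alb was listed at 0 in both.

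Epithelial genes were lowered in wild-type EBs and kept under the KO label. Of 41 expressed genes of junctions, keratins and their regulators, 27 were higher and 1 lower, with a median of 1.26. In wild type 30 were lowered; under the KO label 8 of those 30 were also lowered, 21 stayed within the rule and 1 was induced. Their median level was 6.74 FPKM in EBs labelled Eed KO, 2.58 in wild-type EBs, 8.63 in ES cells labelled Eed KO and 12.05 in wild-type ES cells.

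Epcam, an adhesion molecule of epithelia and ES cells, had 36.5 FPKM in EBs labelled Eed KO, 10.98 in wild-type EBs, 91.3 in ES cells labelled Eed KO and 107 in wild-type ES cells. Spint2, an inhibitor of membrane serine proteases, had 80.9 FPKM in EBs labelled Eed KO, 15.4 in wild-type EBs, 103 in ES cells labelled Eed KO and 116 in wild-type ES cells. Esrp1, the epithelial splicing regulator, had 15.3 FPKM in EBs labelled Eed KO, 2.41 in wild-type EBs, 22.8 in ES cells labelled Eed KO and 27.9 in wild-type ES cells. In each case wild-type EBs were the lowest. With the E14 control in place of the wild-type E36 ES library, the difference of Epcam shrank to 0.81 and that of Esrp1 to 0.66.

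Krt8, a keratin of simple epithelia, had 62.4 FPKM in EBs labelled Eed KO, 28.7 in wild-type EBs, 54.0 in ES cells labelled Eed KO and 113 in wild-type ES cells. Dsp, desmoplakin of desmosomes, had 14.7 FPKM in EBs labelled Eed KO, 4.50 in wild-type EBs, 6.05 in ES cells labelled Eed KO and 14.05 in wild-type ES cells. Both genes were higher under the KO label in EBs and lower under it in ES cells. The wild-type ES library was above the E14 control for 37 of the 41 genes, beside 8828 of all 14774 expressed genes. With the E14 control in its place the list's median was 0.42 and the difference of Krt8 0.13. The median in EBs alone, which does not use the ES libraries, was 1.09, with 22 higher and 1 lower. Mesenchymal transition factors and cadherins, by contrast, had 3 higher and 3 lower of 20 in the difference, with a median of -0.02; Cdh3, P-cadherin, was among the higher ones, with 67.1 FPKM in EBs labelled Eed KO, 6.29 in wild-type EBs, 28.5 in ES cells labelled Eed KO and 13.7 in wild-type ES cells, but its difference of 2.22 was 0.76 with the E14 control.

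**Figure D4:**
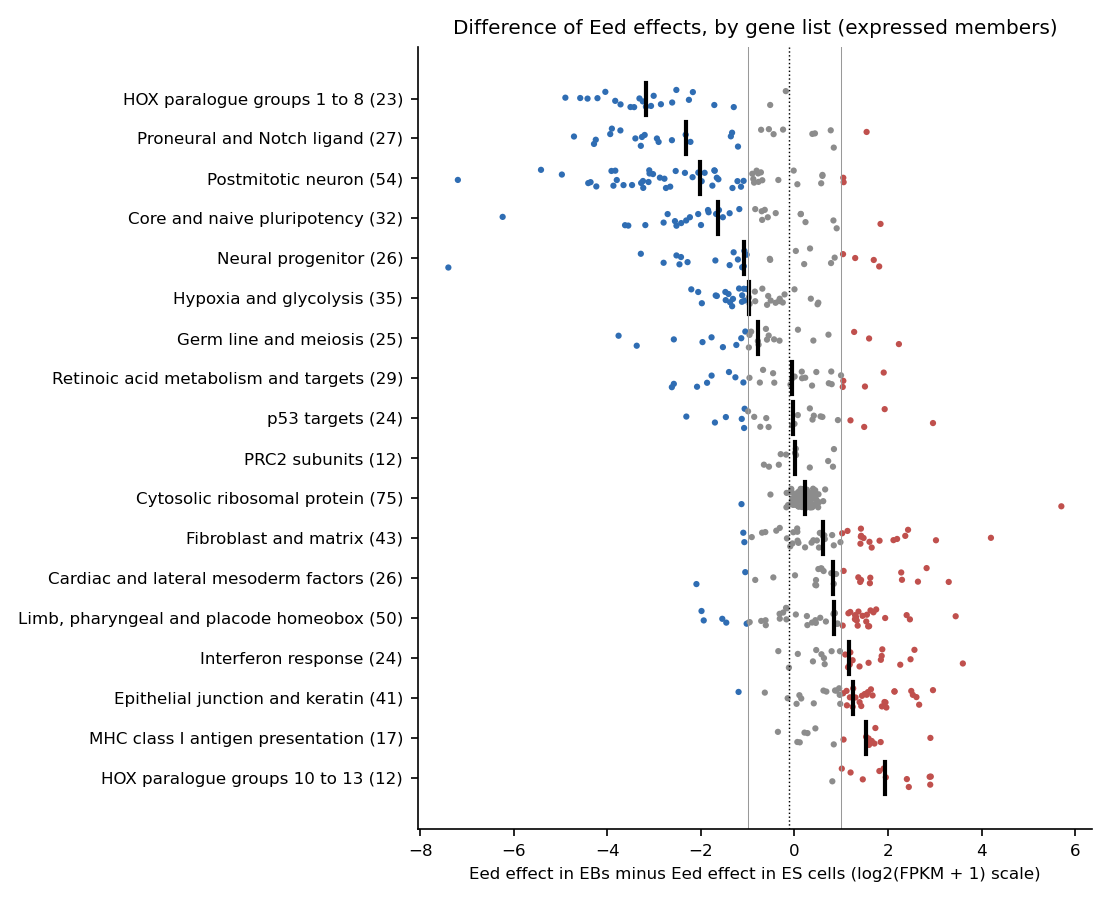
Difference of Eed effects, EBs minus ES cells, on the log2(FPKM + 1) scale for the expressed members of 18 gene lists, with the number of members in brackets; black bars are medians, the dotted line is the median of all expressed genes at -0.11 and the grey lines mark the size rule. HOX groups 1 to 8 sit at -3.17 and HOX groups 10 to 13 at 1.93, with neuronal and pluripotency genes on the lower side and epithelial genes on the higher side.

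Interferon and antigen presentation genes rested on the wild-type ES library. Of 24 expressed interferon response genes 14 were higher and 0 lower, with a median of 1.17, and of 17 genes of MHC class I presentation 10 were higher and 0 lower, with a median of 1.53. With the E14 control in place of the wild-type E36 ES library, the medians were 0.23 for interferon and -0.000937 for MHC class I. Isg15, a ubiquitin-like modifier induced by interferon, had 7.21 FPKM in EBs labelled Eed KO, 2.54 in wild-type EBs, 1.03 in ES cells labelled Eed KO and 9.62 in wild-type ES cells, beside 0.339 in the E14 control. Gbp2, a GTPase induced by interferon, had 2.62 FPKM in EBs labelled Eed KO, 2.44 in wild-type EBs, 4.40 in ES cells labelled Eed KO and 29.4 in wild-type ES cells, beside 0.791 in the E14 control, and its difference turned to -1.52 with that control, while that of Isg15 shrank to 0.61. Tap1, a peptide transporter, and Irf1, an interferon regulatory factor, turned sign too, Tap1 to -0.000937 and Irf1 to -1.18.

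A part of this group did differ between the EBs. B2m, the invariant chain of MHC class I, had 242 FPKM in EBs labelled Eed KO, 69.9 in wild-type EBs, 23.9 in ES cells labelled Eed KO and 21.9 in wild-type ES cells. H2-K1, a classical class I heavy chain with close paralogues between which reads may be divided, had 82.4 FPKM in EBs labelled Eed KO, 25.4 in wild-type EBs, 26.9 in ES cells labelled Eed KO and 25.7 in wild-type ES cells, and a difference of 1.59, or 0.36 with the E14 control. Usp18, which removes Isg15 from proteins, had 7.18 FPKM in EBs labelled Eed KO and 1.02 in wild-type EBs, with 0.212 in ES cells labelled Eed KO and 0.0792 in wild-type ES cells. In EBs alone 8 of the 24 interferon genes were higher and 0 lower.

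Hypoxia and glycolysis genes were lower in the difference for 17 of 35 members and higher for 0, with a median of -0.97. Under the KO label 8 were induced, against 16 in wild type, and 13 were lowered under the KO label against 1 in wild type. Bnip3, a mitophagy receptor induced by hypoxia, had 64.1 FPKM in EBs labelled Eed KO, 136 in wild-type EBs, 70.7 in ES cells labelled Eed KO and 35.2 in wild-type ES cells. Egln3, an oxygen-sensing prolyl hydroxylase, had 7.39 FPKM in EBs labelled Eed KO, 21.97 in wild-type EBs, 13.5 in ES cells labelled Eed KO and 9.09 in wild-type ES cells. Ldha, lactate dehydrogenase, had 371 FPKM in EBs labelled Eed KO, 669 in wild-type EBs, 1018 in ES cells labelled Eed KO and 737 in wild-type ES cells. The wild-type EBs were thus the higher of the EBs and the wild-type ES cells the lower of the ES cells. Genes of the nuclear respiratory chain had 4 of 37 lower, a share of 10.8% beside 10.1% of all expressed genes, and 0 higher; the median was -0.40, and 9 were lowered in EBs under the KO label against 0 in wild type. Housekeeping genes had a median of -0.43 and cytosolic ribosomal proteins one of 0.22.

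The retinoic acid pathway responded under both labels. Of 29 expressed genes of its metabolism and targets, 4 were higher and 8 lower, with a median of -0.05, and 15 of the 17 induced in wild type were also induced under the KO label. Rarb, a receptor gene that retinoic acid switches on directly, had 27.3 FPKM in EBs labelled Eed KO, 18.1 in wild-type EBs, 0.285 in ES cells labelled Eed KO and 0.127 in wild-type ES cells, a difference of 0.38. It was thus induced alike. Crabp1, a retinoic acid carrier, was induced by 1.93 under the KO label and 4.55 in wild type, with 108 FPKM in EBs labelled Eed KO and 382 in wild-type EBs. Nr2f1, a nuclear receptor of neural tissue, had 14.3 FPKM in EBs labelled Eed KO and 36.9 in wild-type EBs. Cyp26a1, the enzyme that degrades retinoic acid, was weak, with 3.0 FPKM in EBs labelled Eed KO and 0.945 in wild-type EBs and a difference of 1.51, in RNA taken after the treatment had ended.

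**Figure D5:**
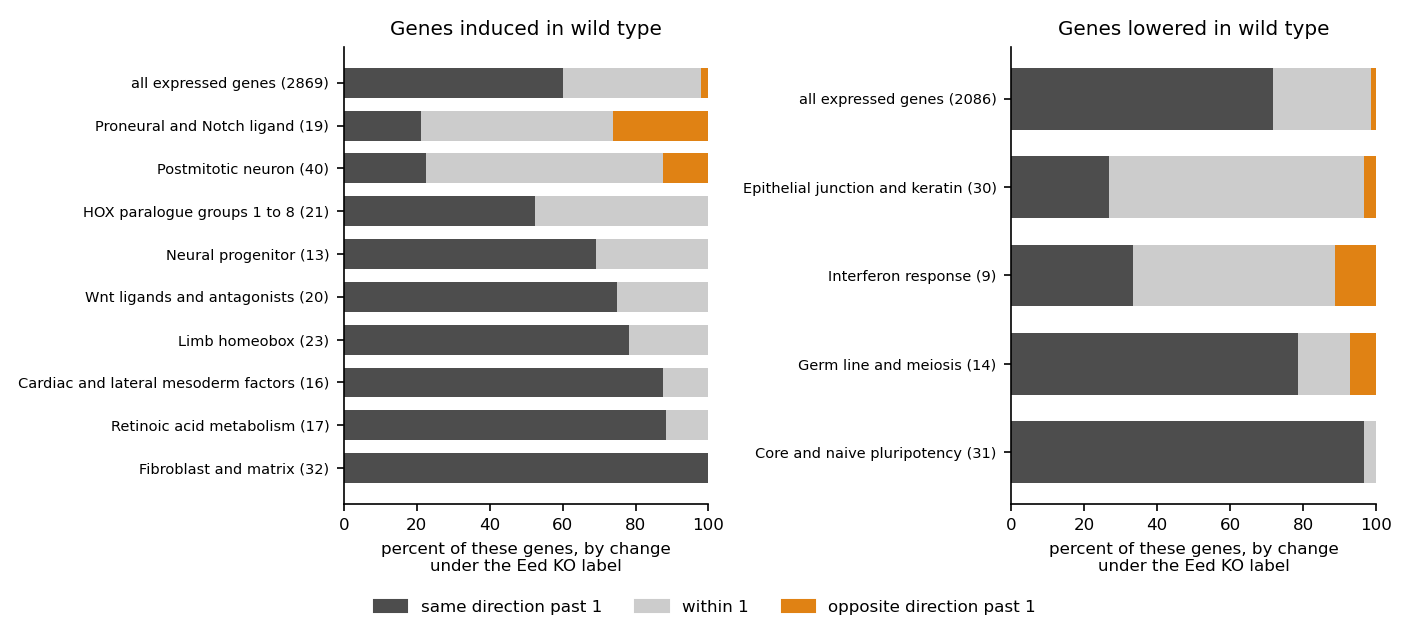
Genes induced (left panel) or lowered (right panel) from ES cells to EBs in wild type, by list with the number of such genes in brackets, and the percent of them that changed past the size rule in the same direction (dark), stayed within it (pale) or changed in the opposite direction (orange) under the Eed KO label. All 32 matrix genes and 15 of 17 retinoic acid genes kept their induction, against 9 of 40 neuronal and 4 of 19 proneural genes, beside 60.0% of all 2869.

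Imprinted genes, which are expressed from 1 parental allele, were mixed: 11 of 35 were higher and 3 lower, with a median of 0.35 that turned to -0.11 with the E14 control in place of the wild-type E36 ES library. Dlk1, a Notch-like membrane protein of the paternal allele, had 563 FPKM in EBs labelled Eed KO, 58.9 in wild-type EBs, 1.44 in ES cells labelled Eed KO and 1.41 in wild-type ES cells. Its maternally expressed neighbour Meg3, a long non-coding RNA, had 0.801 FPKM in EBs labelled Eed KO, 244 in wild-type EBs, 0.447 in ES cells labelled Eed KO and 87.2 in wild-type ES cells. Dlk1 was thus higher under the KO label in EBs only, and Meg3 nearly absent under it in both cell types, where the effects of -7.09 in EBs and -5.93 in ES cells left a difference of -1.16. Nnat, a proteolipid expressed from the paternal allele, was also low in both, with 0.557 FPKM in EBs labelled Eed KO, 167 in wild-type EBs, 0.771 in ES cells labelled Eed KO and 30.4 in wild-type ES cells. The E14 control had 64.9 FPKM of Meg3 but 3.12 of Nnat, so part of the effect on Nnat in ES cells rests on the wild-type E36 library.

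Other imprinted genes were among the 11 higher ones. Igf2r, the receptor that clears Igf2, had 157 FPKM in EBs labelled Eed KO, 18.8 in wild-type EBs, 19.2 in ES cells labelled Eed KO and 13.6 in wild-type ES cells. Phlda2, a placental growth suppressor, had 26.3 FPKM in EBs labelled Eed KO, 2.83 in wild-type EBs, 78.1 in ES cells labelled Eed KO and 80.8 in wild-type ES cells. Grb10, a growth factor adaptor, had 74.8 FPKM in EBs labelled Eed KO, 9.95 in wild-type EBs, 27.6 in ES cells labelled Eed KO and 32.3 in wild-type ES cells. Each was higher in EBs under the KO label while the ES cells were close together, although Grb10 had 6.53 FPKM in the E14 control, with which its difference was 0.86. Igf2, a growth factor of the paternal allele, had 1003 FPKM in EBs labelled Eed KO, 127 in wild-type EBs, 25.9 in ES cells labelled Eed KO and 10.8 in wild-type ES cells for its main transcript, a difference of 1.77 that shrank to 0.67 over its 3 transcripts summed.

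Of 36 genes of the cell cycle and its inhibitors, 4 were higher and 2 lower, with a median of -0.32, shares near or under those of all expressed genes. Cdkn2a, the Ink4a and Arf locus and a known PRC2 target, had 112 FPKM in EBs labelled Eed KO, 16.1 in wild-type EBs, 42.8 in ES cells labelled Eed KO and 14.4 in wild-type ES cells, a difference of 1.21. Cdkn1a, the p21 gene and a p53 target, had 5.32 FPKM in EBs labelled Eed KO, 81.0 in wild-type EBs, 6.66 in ES cells labelled Eed KO and 19.05 in wild-type ES cells, a difference of -2.31. In each cell type Cdkn1a was thus higher in wild type, most of all in EBs, and Cdkn2a was higher under the KO label. The p53 target list as a whole was lower under the KO label in both cell types, with medians of -1.34 in EBs and -0.98 in ES cells, and its difference had a median of -0.02 with 4 of 24 higher and 6 lower. The wild-type E36 ES library was above the E14 control for 22 of the 24 genes, beside 8828 of all 14774 expressed genes. With that control in its place the list's median difference was -1.04. Gli1, the transcriptional readout of hedgehog signalling, had 9.58 FPKM in EBs labelled Eed KO, 1.88 in wild-type EBs, 7.11 in ES cells labelled Eed KO and 20.3 in wild-type ES cells, with effects of opposite sign in EBs and ES cells.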

How the data were processed

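RNA was measured in 6 of the 18 samples; 4 of these libraries enter the difference described, and the E14 control is an alternative wild-type ES library. Libraries were made with the TruSeq RNA version 2 kit, per the labels' protocols, and reads were processed with TopHat and Cuffdiff on mm9, per the submitters' processing notes. No source used here gives their versions, options or annotation. The values deposited by the authors are FPKM for 29851 RefSeq transcripts, in which reads were divided between isoforms. Counts were not used here, and the depth behind a value is known only relative to other libraries.

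From these, symbols were matched for 29300 transcripts through the RefSeq table of GRCm38.p6, used for names and promoter windows only, and 551 kept their accession. For each of 23421 genes the transcript of highest average over these 4 libraries stood for the gene. Differences of log2(FPKM + 1) were taken with a pseudocount of 1. A gene was expressed at 1 FPKM or more in at least 1 of the 4 libraries, and called at a difference of at least 1 in size. The log2 scale was computed here from the deposited FPKM. The 42 gene lists hold 1173 entries, of which 6 were not matched. The libraries, lists, comparisons and naming rule were chosen with earlier results of these data known, so no count is independent support. The naming rule took the 12 highest and 12 lowest differences of at least 5 FPKM in some library, without small RNAs and numbered loci, and up to 5 genes of each list and response class by size. Some genes are not reported here. Of the 115 genes named, 23 fall outside it and were chosen after their values were seen: Afp, Alb, Cyp26a1, Dll1, Esrrb, Gata4, H2-K1, Hoxa10, Hoxc10, Igf2, Irf1, Klf5, Ldha, Lmx1a, Med16, Meg3, Nanog, Nkx6-1, Rarb, Slc17a6, Tap1, Tdgf1 and Usp18. Versions were Python 3.11.15, pandas 2.3.3 and numpy 2.4.6. Alternatives varied the pseudocount, the filter, the scaling, the transcript choice, the wild-type ES library and the chromosomes; the version without small RNA genes was added after seeing the data. The contrast was tested on simulated data with known answers.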

Additional observations from a re-analysis of the deposited data

Results flagged for a closer look

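For 17 genes described in these libraries the Eed KO label went with more RNA in one cell type and less in the other, past the size rule in both. The difference between the effects was not tested, since each group has 1 library. Genes lower in EBs labelled Eed KO and higher in ES cells labelled Eed KO had differences of -5.89 for Rtn1, -5.02 for Adgrg1, -4.98 for Rhox6, -4.90 for Hoxc4, -4.87 for Prmt8, -4.18 for Rhox9, -3.94 for Neurog1, -3.69 for Dnmt3l, -3.62 for Lefty2, -3.55 for Dppa3 and -2.52 for Esrrb. Adgrg1, an adhesion receptor of neural progenitors, had 3.17 FPKM in EBs labelled Eed KO, 49.7 in wild-type EBs, 7.22 in ES cells labelled Eed KO and 2.08 in wild-type ES cells; over its 2 transcripts summed the effect in ES cells was 0.82, within the rule. Rhox9, next to Rhox6 on the X chromosome, had 0.465 FPKM in EBs labelled Eed KO, 4.33 in wild-type EBs, 23.4 in ES cells labelled Eed KO and 3.91 in wild-type ES cells.

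Genes higher in EBs labelled Eed KO and lower in ES cells labelled Eed KO had differences of 4.202 for Col1a2, 3.60 for Isg15, 3.27 for Gli1, 3.03 for Col1a1, 2.61 for Dsp and 2.14 for Krt8. For Col1a2, Isg15, Col1a1, Dsp and Krt8 the E14 control lay nearer to the ES cells labelled Eed KO than to the wild-type E36 ES cells, and for Gli1 it lay nearer to wild type. Over all expressed genes, 81 had such opposite effects, 40 positive in EBs and 41 negative, and 22 of the 81 were microRNA or small nucleolar or Cajal body RNA genes, which poly(A) libraries measure poorly.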

How the results depend on the processing

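No paired analysis was possible because each group has 1 library. With a pseudocount of 5, 528 genes were higher and 607 lower in place of 1352 and 1487; 299 were induced in wild type only, 33 induced in both but less under KO, 22 induced in wild type and lowered under KO, 127 lowered under KO only, 52 lowered further under KO, 100 lowered in wild type only, 11 lowered less under KO, 12 lowered in wild type and induced under KO, 261 induced under KO only and 72 induced further under KO, while 74 lower and 72 higher genes passed in neither response. The medians were then -0.74 for pluripotency, -0.52 for neural progenitors, 0.65 for epithelium, 0.51 for interferon and 0.83 for MHC class I. With a pseudocount of 0.1, where 1847 genes were higher and 2215 lower, 423 were induced in both but less under KO, 145 induced in wild type and lowered under KO, 406 lowered further and 467 induced further under KO, 140 lowered less under KO and 89 lowered in wild type and induced under KO. A filter of 5 FPKM left 390 genes induced in wild type only and 109 lower and 97 higher that passed in neither response. Without a filter, neural progenitors had a median of -0.54 and interferon genes 0.88. Upper-quartile rescaling moved the median of all genes to -0.01, gave neural progenitors -0.99 and turned the balance of calls to 1568 higher and 1278 lower, as median-of-ratios rescaling did with 1528 higher and 1333 lower. The median for hypoxia was -1.06 over summed transcripts and also without chromosomes 3, 6, 11 and Y, where neural progenitors had -0.77. Counting every transcript gave 1797 higher and 2151 lower. Leaving out small RNA genes, added after seeing the data, left 15 genes lowered in wild type and induced under KO.

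The choice of the wild-type ES library mattered as well. With the E14 control in its place, 1215 genes were higher and 2226 lower, a share of 35.3% higher among called genes against 47.6%; 236 were induced in both but less under KO, 521 were lowered under KO only and 346 lower genes passed in neither response. Medians became 0.42 for epithelium, 0.23 for interferon and -0.000937 for MHC class I, and Gbp2 (-1.52), Irf1 (-1.18) and Tap1 (-0.000937) changed sign. The cause of these changes was not tested. Of 109 named genes past the rule, 24 fell within it under at least 1 of 9 alternatives and 3 changed sign. Medians of HOX groups 1 to 8, HOX groups 10 to 13, proneural and neuronal genes stayed at least 1 in size, with the same sign, under all 9. Relative depth was lowest for EBs labelled Eed KO (0.799), which limits values near 0 there.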

Other observations

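Neural crest and Pax genes, which the comparisons above leave out, were mixed. Of 17 expressed neural crest and glial genes 2 were higher and 4 lower in the difference, with a median of -0.35. Ednrb, an endothelin receptor of neural crest, had 0.110 FPKM in EBs labelled Eed KO, 13.3 in wild-type EBs, 0.0249 in ES cells labelled Eed KO and 0.118 in wild-type ES cells. Tfap2b, a factor of neural crest and sympathetic neurons, had 0.929 FPKM in EBs labelled Eed KO and 9.66 in wild-type EBs. Among 7 Pax genes 2 were higher and 2 lower: Pax3, a factor of dorsal neural tube and crest, had 1.61 FPKM in EBs labelled Eed KO and 10.04 in wild-type EBs, and Pax9, a factor of pharyngeal pouches and vertebral column, had 4.75 FPKM in EBs labelled Eed KO and 0.237 in wild-type EBs. Pdgfra, a receptor of mesenchyme, had 43.2 FPKM in EBs labelled Eed KO and 14.5 in wild-type EBs.

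Extraembryonic endoderm and basement membrane genes were higher for 8 of 20 members and lower for 0, with a median of 0.55. Lamc1, a laminin chain, had 88.6 FPKM in EBs labelled Eed KO, 39.6 in wild-type EBs, 43.7 in ES cells labelled Eed KO and 59.0 in wild-type ES cells. In another list, of secreted endoderm products and retinol carriers, 5 of 12 expressed members were higher and 1 lower, with a median of 0.73. Its member Apoe, a lipid carrier, had 70.1 FPKM in EBs labelled Eed KO, 24.1 in wild-type EBs, 63.6 in ES cells labelled Eed KO and 119 in wild-type ES cells, beside 454 in the E14 control. Of 20 PRC1 genes 0 were higher and 1 was lower, Kdm2b, at -1.09, which lay within the rule under several alternatives. None of 11 genes of the state that resembles the embryo after its first cleavage passed the rule, but their median of -0.14 depended on the processing: it was -1.19 with 0.1 added to FPKM in place of 1, and 1.02 over 13 genes with the E14 control as the wild-type ES library.

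Some extremes stood outside the lists. Igfbpl1, a secreted protein of the developing brain, had 1.34 FPKM in EBs labelled Eed KO, 126 in wild-type EBs, 2.59 in ES cells labelled Eed KO and 1.63 in wild-type ES cells. Myrf, a membrane-bound transcription factor, had 51.4 FPKM in EBs labelled Eed KO, 6.44 in wild-type EBs, 14.04 in ES cells labelled Eed KO and 25.6 in wild-type ES cells. Tfrc, the transferrin receptor, had 25.8 FPKM in EBs labelled Eed KO, 83.6 in wild-type EBs, 93.9 in ES cells labelled Eed KO and 76.8 in wild-type ES cells. Med16, a Mediator subunit, had 0.0461 FPKM in EBs labelled Eed KO and 12.9 in wild-type EBs for its main transcript, and over all its transcripts a difference of -0.51, within the rule. Rps27, a ribosomal protein gene, was listed at 0 for its main transcript in EBs labelled Eed KO, wild-type EBs and ES cells labelled Eed KO, and had 51.2 FPKM in wild-type ES cells. Over its 2 transcripts summed it had 17.2 FPKM in EBs labelled Eed KO, 4.85 in wild-type EBs, 5.21 in ES cells labelled Eed KO and 58.4 in wild-type ES cells. The zeros thus concern 1 transcript of a gene used by all cells, and may be failed estimates. With the E14 control as the wild-type ES library, the difference of the main transcript was 0.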
